A study of Mus musculus with 14 samples.

Results

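The genes described here are 7 transcription factors that set intestinal identity, Cdx1, Cdx2, Hnf4a, Hnf4g, Gata6, Elf3 and Sox2, chosen by name from 37680 genes in the count table of 14 libraries of mouse colon epithelium. All 7 were found by symbol. Of these, 6 passed the filter of at least 10 counts in at least 3 libraries and were tested, and Sox2 had 0 raw counts in all 14 libraries.

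The study asked how loss of Smad4 from the intestinal epithelium changes the early response of the colon to dextran sulfate sodium (DSS), a polysaccharide that injures the mucosa. Smad4 was deleted in Smad4 f/f mice carrying Villin-CreERT2, a Cre recombinase expressed in epithelial cells of the gut and active after tamoxifen. The mice had a background enriched for C57/BL6 and were 8 to 14 weeks old. Epithelium was released from the whole colon with EDTA, and polyA RNA was sequenced. The 4 groups were wild type (WT) on water (4 libraries), Smad4 knockout (KO) on water (4), WT after 2.5% DSS in the drinking water for 3 d (3) and KO after the same DSS (3). The study's methods place the transgene in mutants and controls, and do not give the Smad4 alleles of the WT mice or whether they received tamoxifen. Cre acts only in cells that express villin, so Smad4 was left intact in other cell types that EDTA may release.

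CDX1 and CDX2 are caudal-type homeobox factors that specify the posterior gut, and CDX2 holds the intestine apart from the stomach and esophagus. HNF4A and HNF4G are nuclear receptors that bind the same DNA elements and drive genes of absorption and of the brush border. GATA6 is a zinc finger factor of endoderm, ELF3 an epithelium-specific ETS factor, and SOX2 the factor of foregut, stomach and esophagus. SMAD4 is the shared partner of the receptor-activated SMADs and carries TGF-β and BMP signals to the genome.

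Total counts ran from 12882827 to 26087231 per library. No library was a copy of another in its own group, and pairs across groups were not compared. Smad4 had 118 to 182 CPM (counts-per-million, each count divided by a library size that TMM corrects for composition) in WT and 35.1 to 46.8 CPM in 6 of the 7 KO libraries. The library labelled KO water replicate 1 had 158 CPM of Smad4, inside the WT range. The members' log2 fold changes on water are therefore given with and without it. Other values of KO on water include this library unless said otherwise. The study's figure legends count 3 replicates for this group. Mitochondrial genes held 4.05% to 8.23% of the counts in 11 libraries and 21.4% to 32.8% in the other 3, which were WT water replicates 3 and 4 and KO water replicate 4. Summed CPM of 7 epithelial markers was 11918 to 19264, against 8.34 to 24.8 for 8 immune markers and 0.58 to 3.22 for 5 endothelial markers.

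To show the DNA before the 2 members whose groups did not overlap after DSS, the 250 bases before the RefSeq starts of Cdx2 and Hnf4a are given (assembly GRCm38.p6, 5′ to 3′ on the gene's strand). Such lack of overlap was found for 21.7% of all genes tested. Hnf4a has a distal and a proximal start, and both are shown. Capitals mark every match, on either strand, to the SMAD elements GTCTAGAC and CAGAC, the GATA element AGATAA, the CDX element TTTATNG and the HNF4 element CAAAGTCCA.
Cdx2 (chr5:147307250-147307499, minus strand): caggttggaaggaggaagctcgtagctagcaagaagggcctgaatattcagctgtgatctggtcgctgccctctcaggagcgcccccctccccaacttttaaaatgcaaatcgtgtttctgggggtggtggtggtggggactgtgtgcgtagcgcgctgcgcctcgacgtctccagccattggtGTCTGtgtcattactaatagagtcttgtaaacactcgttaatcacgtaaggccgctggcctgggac
Hnf4a, distal start (chr2:163506607-163506856, plus strand): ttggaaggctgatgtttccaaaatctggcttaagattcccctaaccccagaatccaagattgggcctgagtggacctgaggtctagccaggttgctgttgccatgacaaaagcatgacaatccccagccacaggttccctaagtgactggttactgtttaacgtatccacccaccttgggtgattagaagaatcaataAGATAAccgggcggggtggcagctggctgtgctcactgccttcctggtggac
Hnf4a, proximal start (chr2:163546905-163547154, plus strand): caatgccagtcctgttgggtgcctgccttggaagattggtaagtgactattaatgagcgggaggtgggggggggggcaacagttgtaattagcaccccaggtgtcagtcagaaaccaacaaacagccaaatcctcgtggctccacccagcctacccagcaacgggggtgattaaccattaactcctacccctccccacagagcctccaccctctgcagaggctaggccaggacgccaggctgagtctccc
The Cdx2 window held CAGAC on the opposite strand at -66. The distal Hnf4a window held AGATAA at -52, and the proximal one held no match to these letters. Among 32851 windows of the same length, CAGAC was found in 42.2% and AGATAA in 9.99%. The remaining elements had no match in these 3 windows, and they were found in 0.167% (GTCTAGAC), 9.81% (TTTATNG) and 0.384% (CAAAGTCCA) of all windows. Of the windows not shown, that of Elf3 also held CAGAC on the opposite strand, at -120, and that of Sox2 held no match. Elf3 had log2 fold changes of KO against WT of 0.00 on water and -0.06 after DSS. All these matches describe the letters only.

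The 6 expressed members spanned a wide range of levels, and the order of the levels was nearly the same in every group. Levels between genes were compared as CPM per kilobase of exon (GENCODE M1). In WT on water, Cdx1 had 273 ± 19.9 (SD, n = 4) CPM per kb and Elf3 262 ± 34.5. Their ranges overlapped, and Cdx1 was above Elf3 in only 3 of 14 libraries, so these neighbors have no fixed order. Hnf4a followed with 139.6 ± 21.9 and Cdx2 with 115 ± 17.1 CPM per kb. Hnf4a was above Cdx2 in 13 of 14 libraries, although their ranges in WT on water overlapped. Gata6 had 16.5 ± 1.99 and Hnf4g 6.98 ± 1.75 CPM per kb, and each of these steps down held in all 14 libraries. Sox2 had no count, which allows at most 3 counts per library, or 0.0452 to 0.131 CPM per kb, a limit that covers counting error only. The plot of levels per length of exon shows this order.

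**Figure D1:**
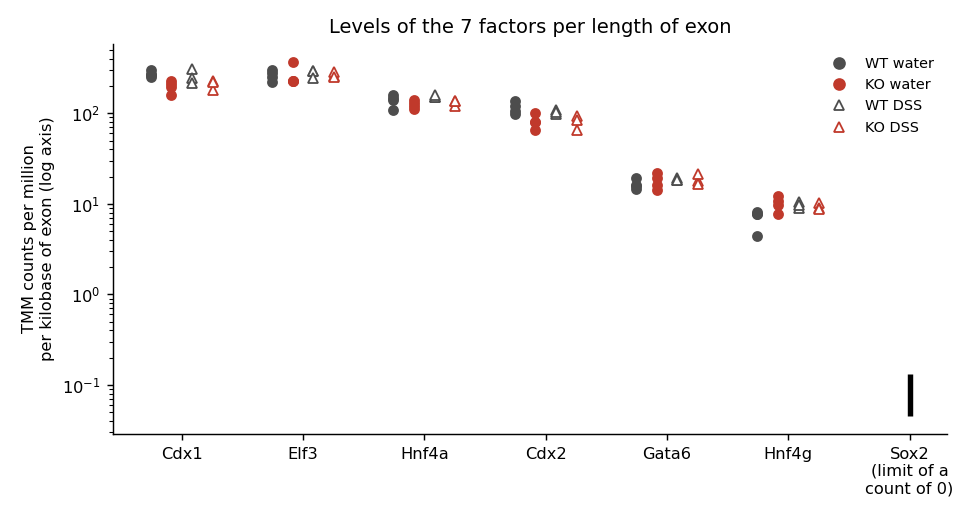
CPM per kilobase of exon (log axis) of the 7 factors, 1 point per library, filled circles for water, open triangles for DSS, gray for WT and red for Smad4 KO. Cdx1 and Elf3 share the top, Hnf4g lies lowest of the expressed factors, and the bar at Sox2 spans the limits that a count of 0 allows in the 14 libraries.

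Between the lowest and highest library, Hnf4a differed 1.47-fold, Gata6 1.55-fold, Elf3 1.68-fold, Cdx1 1.90-fold, Cdx2 2.10-fold and Hnf4g 2.81-fold in CPM. With edgeR's quasi-likelihood test and Benjamini-Hochberg adjustment over all 15127 genes tested, 0 of 6 members passed an adjusted p of 0.05 in any of the 4 comparisons of groups or in the difference between them, and DESeq2 also called 0. At an unadjusted p under 0.05, edgeR had 3 of 6 members for KO against WT on water (Cdx1, Cdx2 and Hnf4g), 1 after DSS (Cdx2), 1 for DSS against water in WT (Hnf4g), 0 for DSS against water in KO and 0 for the difference of the DSS responses. Over all genes tested, 20.4%, 15.4%, 24.2%, 6.37% and 7.5% had such an unadjusted p in these 5 comparisons, in that order. At the adjusted threshold the same test called 0.00661% of all genes on water, 0.747% after DSS, 0% for DSS in WT, 0.00661% for DSS in KO and 0.00661% for the difference of responses. For DSS in WT, 3662 genes had an unadjusted p under 0.05 and DESeq2 called 1777. Since edgeR called so few genes at all, a member missing from the calls is not shown to be equal between groups, and the intervals below give the differences that these libraries leave possible.

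**Figure D2:**
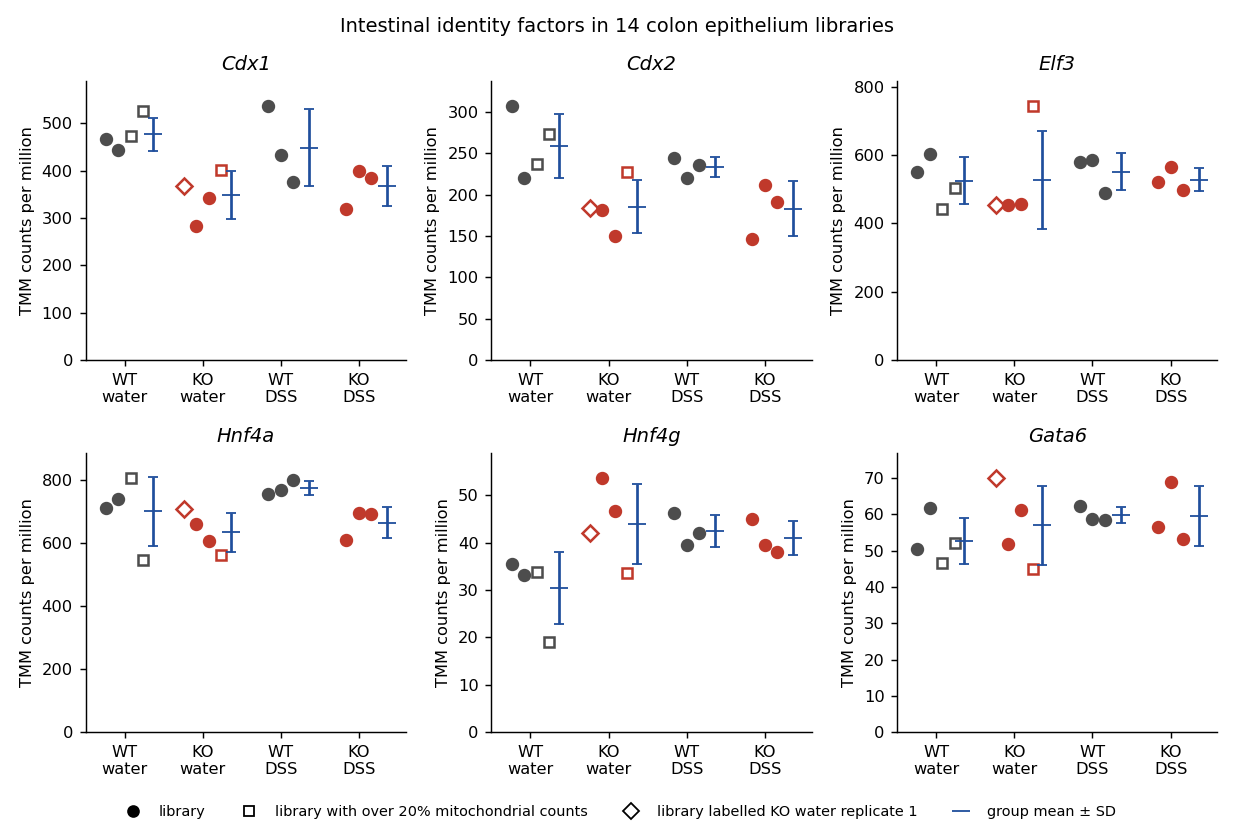
CPM of the 6 expressed members in each of 14 libraries by group, with the group mean ± SD in blue, open squares for the 3 libraries with over 20% mitochondrial counts and an open diamond for the library labelled KO water replicate 1. On water all 4 KO libraries lie below all 4 WT libraries for Cdx1, and after DSS all 3 KO libraries lie below all 3 WT libraries for Cdx2 and Hnf4a. Of all genes tested, 10.4% on water and 21.7% after DSS had no overlap in one direction or the other.

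The caudal factors were the members with the lowest fitted values in KO. Cdx1 (ENSMUSG00000024619, chromosome 18 of mm9 from 61178516 to 61195853, minus strand) marks the crypt in the adult intestine. On water it had 468, 443, 472 and 526 CPM in WT and 367, 282, 343 and 401 CPM in KO. Every KO library, the one labelled replicate 1 included, was below every WT library, with means of 477 ± 34.8 and 348 ± 50.2 CPM (SD, n = 4 each), so that the KO mean was 73.0% of the WT mean. The log2 fold change was -0.45 (95% interval -0.82 to -0.09, edgeR adjusted p = 0.181), and the exact permutation test of the 8 CPM values gave a two-sided p of 0.0286, the smallest that 4 against 4 allow. Of all genes tested, 10.4% likewise had no overlap between the groups in one direction or the other.

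After DSS, Cdx1 had 536, 433 and 376 CPM in WT and 319, 398 and 385 CPM in KO. These groups overlapped through WT replicate 3, and the log2 fold change was -0.28 (95% interval -0.61 to 0.04, edgeR adjusted p = 0.387). WT replicate 3 is also the only library after DSS with another letter prefix in its name, and without it the log2 fold change was -0.39 (edgeR adjusted p = 0.331). DSS against water gave a log2 fold change of -0.09 (95% interval -0.43 to 0.25) in WT and 0.08 (-0.30 to 0.46) in KO.

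Cdx2 (ENSMUSG00000029646, chromosome 5 of mm9 from 148112381 to 148118846, minus strand) is the master factor of intestinal fate. On water it had 307, 220.2, 237 and 273 CPM in WT and 184, 181, 149.7 and 228 CPM in KO. Only KO replicate 4, at 228, reached above the lowest WT library, and the means were 259 ± 38.6 and 186 ± 32.2 CPM (SD, n = 4 each), with KO at 71.6% of WT. The log2 fold change was -0.48 (95% interval -0.87 to -0.10, edgeR adjusted p = 0.182). Without KO replicate 4 it was -0.60 and passed the threshold (edgeR adjusted p = 0.0474), the 1 setting among all those run in which a member was called. In that setting edgeR called 11.5% of all genes, so 1 of 6 members was near the share of all genes. That library had 21.4% of its counts on mitochondrial genes, and when the 3 libraries with such shares were all left out (chosen after seeing the data) the log2 fold change was -0.61 and the edgeR adjusted p 0.131.

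After DSS, Cdx2 had 244, 220.1 and 236 CPM in WT and 146, 211 and 191 CPM in KO. All 3 KO libraries lay below all 3 WT libraries, with means of 233 ± 12.3 and 183 ± 33.3 CPM (SD, n = 3 each), KO at 78.4% of WT. The log2 fold change was -0.35 (95% interval -0.65 to -0.05, edgeR adjusted p = 0.269), and the exact permutation p was 0.1, the smallest that 3 against 3 allow, while 21.7% of all genes had no overlap in this comparison. Among the 5 libraries of prefix D the log2 fold change was -0.34 (edgeR adjusted p = 0.432). DSS against water gave -0.15 (95% interval -0.47 to 0.16) in WT and -0.02 (-0.44 to 0.40) in KO.

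Removing the library labelled KO water replicate 1 left the caudal factors where they were on water, at a log2 fold change of -0.48 (edgeR adjusted p = 0.240) for Cdx1 and -0.47 (0.262) for Cdx2. The KO means on water were then 342 ± 59.6 CPM for Cdx1 and 186 ± 39.4 CPM for Cdx2 (SD, n = 3). Of the other members, Hnf4a then had -0.20, Hnf4g 0.55, Gata6 0.01 and Elf3 0.07 on water, and for DSS against water in KO the 6 members had values from -0.12 to 0.18, none of them called. All KO libraries after DSS have names of prefix D, and those of KO on water have Z, MS or MP. Within KO, DSS and name prefix therefore cannot be told apart, and the difference of the DSS responses shares this limit. Among the water libraries whose names start with Z, Cdx1 had 472 CPM in the WT library and 282 in KO replicate 2, and Cdx2 had 237 and 181. The library labelled KO replicate 1, also of prefix Z and with Smad4 at the WT level, had 367 CPM of Cdx1 and 184 of Cdx2. Among those that start with MP, Cdx1 had 526 CPM in WT and 401 in KO, and Cdx2 had 273 in WT and 228 in KO. The direction within each prefix was thus that of the whole, but without that library each prefix holds 1 library against 1. The ratio of Cdx1 to Cdx2 counts inside a library, which does not depend on scaling, was 152% to 201% in WT on water and 156% to 229% in KO, and 159% to 219% and 188% to 218% after DSS. These ranges overlapped in all 4 comparisons, and the exact permutation p-values were 0.514 to 0.829.

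The nuclear receptors had fitted values on opposite sides of 0 on water. Hnf4a (ENSMUSG00000017950, chromosome 2 of mm9 from 163332544 to 163398646, plus strand) is the dominant HNF4 of the gut epithelium. On water it had 711, 740.5, 805 and 546 CPM in WT and 707, 659, 607 and 563 CPM in KO. The groups overlapped, since WT replicate 4 was the lowest of the 8 libraries, and the log2 fold change was -0.14 (95% interval -0.54 to 0.25, edgeR adjusted p = 0.684). After DSS it had 756, 768 and 800.2 CPM in WT and 609, 694 and 692 CPM in KO. Here the groups did not overlap, with means of 775 ± 22.8 and 665 ± 48.8 CPM (SD, n = 3 each), and KO was at 85.8% of WT. Of all genes tested, 21.7% had no overlap in this comparison. The log2 fold change was -0.22 (95% interval -0.44 to 0.01, edgeR adjusted p = 0.339), with an exact permutation p of 0.1, again the smallest possible, and -0.19 within prefix D. DSS against water gave 0.15 (95% interval -0.21 to 0.50) in WT and 0.07 (-0.27 to 0.41) in KO.

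Hnf4g (ENSMUSG00000017688, chromosome 3 of mm9 from 3508030 to 3659775, plus strand), the paralog that can stand in for HNF4A in the small intestine, was the member with the highest fitted value in KO on water. It had 35.4, 33.2, 33.9 and 19.0 CPM in WT and 42.1, 53.5, 46.6 and 33.5 CPM in KO. KO replicate 4 fell among the WT libraries and the other 3 KO libraries were above all of them, with means of 30.4 ± 7.62 and 43.9 ± 8.38 CPM (SD, n = 4 each). The log2 fold change was 0.53 (95% interval 0.05 to 1.01, edgeR adjusted p = 0.210). With the mitochondrial share as a covariate it was 0.35 (edgeR adjusted p = 0.522), and without WT replicate 4, the library with the highest mitochondrial share, 0.36 (0.422).

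After DSS, Hnf4g had 46.1, 39.4 and 41.9 CPM in WT and 44.9, 39.6 and 38.1 CPM in KO. The 2 genotypes overlapped, with a log2 fold change of -0.05 (95% interval -0.29 to 0.19, edgeR adjusted p = 0.850). All 3 WT libraries after DSS were above all 4 WT libraries on water, a log2 fold change of 0.48 (95% interval 0.03 to 0.92, edgeR adjusted p = 0.182) with an exact permutation p of 0.0571, the smallest that 3 against 4 allow. In that comparison 24.4% of all genes had no overlap. Without WT water replicate 4 the value was 0.31 (edgeR adjusted p = 0.166), and with the mitochondrial share as a covariate 0.26 (0.672). In KO, DSS against water gave -0.10 (95% interval -0.49 to 0.29), and 8.88% of all genes but none of the 6 members had no overlap. The difference of the DSS responses between the genotypes was -0.58 (95% interval -1.17 to 0.01, edgeR unadjusted p = 0.0533, adjusted p = 0.645). The WT libraries on water enter both the genotype and the DSS value of Hnf4g, so the pair of values is not independent.

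Within a library, Hnf4g counts were a small fraction of Hnf4a counts. The ratio was 4.99%, 4.49%, 4.21% and 3.49% in WT on water and 5.95%, 8.12%, 7.68% and 5.96% in KO. Each of the 4 KO libraries was above each of the 4 WT libraries. The mean difference of the log2 ratio was 0.69, with an exact permutation p of 0.0286, the smallest possible, and 0.229 after adjustment over the 8 ratio tests. After DSS the ratio was 6.11%, 5.14% and 5.24% in WT and 7.39%, 5.70% and 5.51% in KO. The genotypes overlapped after DSS (difference of the log2 ratio 0.17, exact permutation p = 0.4), and WT after DSS was above WT on water in every library (difference 0.36, exact permutation p = 0.0571, adjusted 0.229). In KO, DSS against water gave a difference of -0.16 (exact permutation p = 0.286). Of single genes tested, 10.4% had no overlap for KO against WT on water and 24.4% for DSS against water in WT. No such share was computed for ratios of genes. Per kilobase of exon, Hnf4g stood at 4.03% to 9.37% of Hnf4a over all libraries.

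**Figure D3:**
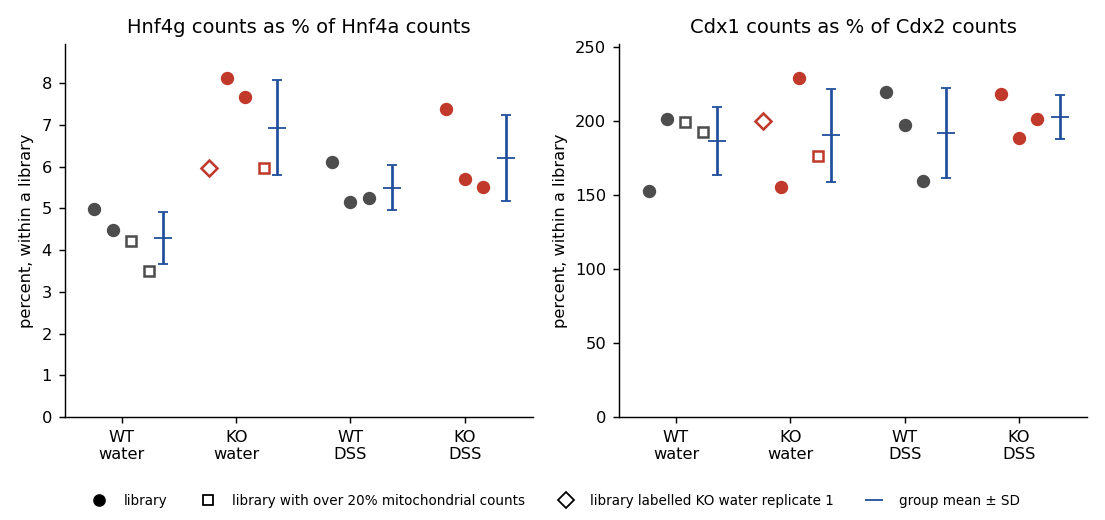
Raw counts of Hnf4g as a percentage of Hnf4a counts (left) and of Cdx1 as a percentage of Cdx2 counts (right) within each of 14 libraries by group, with group mean ± SD in blue and the symbols for library quality as before. The Hnf4g share is 3.49% to 4.99% in WT on water and 5.95% to 8.12% in KO on water, while the Cdx1 to Cdx2 percentages overlap between all groups.

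Gata6 and Elf3 had intervals that crossed 0 in every comparison. Gata6 (ENSMUSG00000005836, chromosome 18 of mm9 from 11052508 to 11085633, plus strand) had 50.5, 61.6, 46.7 and 52.0 CPM in WT on water and 69.9, 51.9, 61.3 and 45.0 in KO. The highest of these 8 values was that of the library labelled KO replicate 1, and the mean of KO was 57.0 ± 10.9 (SD, n = 4) with it and 52.7 ± 8.17 (SD, n = 3) without it, against 52.7 ± 6.35 (SD, n = 4) in WT. After DSS, Gata6 had 62.4, 58.6 and 58.3 CPM in WT and 56.5, 68.9 and 53.3 in KO. The log2 fold change of KO against WT was 0.11 (95% interval -0.26 to 0.49) on water and -0.00 (-0.25 to 0.25) after DSS. DSS against water gave 0.18 (95% interval -0.10 to 0.47) in WT and 0.07 (-0.32 to 0.46) in KO. Without strand in the counting, 58 of 3194 exon bases of Gata6 could share reads with the antisense gene 1010001N08Rik, which had 27 to 107 raw counts.

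Elf3 (ENSMUSG00000003051, chromosome 1 of mm9 from 137150151 to 137155049, minus strand) acts in epithelial differentiation and is induced in inflamed epithelium. It had 550.4, 604, 442 and 503 CPM in WT on water and 453, 454, 457 and 743 in KO. The first 3 KO libraries were nearly equal and replicate 4 stood alone, so the log2 fold change of 0.00 (95% interval -0.45 to 0.46) was -0.21 without that library. After DSS, Elf3 had 579, 587 and 489.9 CPM in WT and 521, 565 and 499 in KO. These overlapped (log2 fold change -0.06, 95% interval -0.31 to 0.19), and DSS against water gave 0.07 (95% interval -0.26 to 0.41) in WT and 0.00 (-0.46 to 0.47) in KO. Of its 2000 exon bases, 162 overlap the antisense gene Gm16606 (20 to 80 raw counts).

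**Figure D4:**
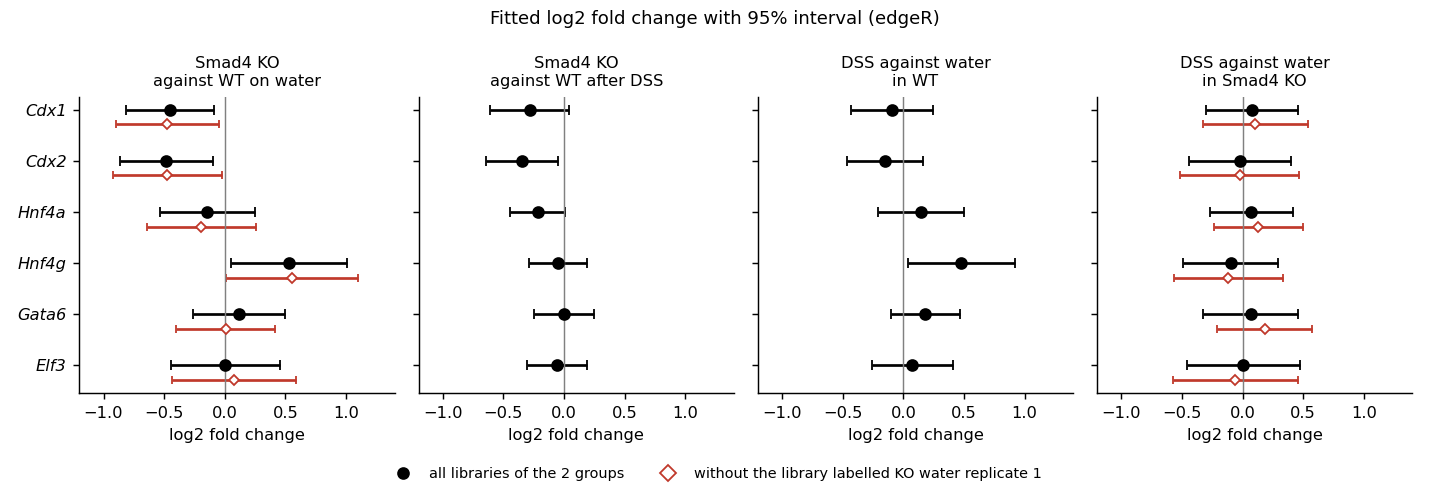
Fitted log2 fold change of the 6 expressed members with its 95% interval in 4 comparisons, black for all libraries of the 2 groups compared and red diamonds for the fit without the library labelled KO water replicate 1. The intervals of Cdx1 and Cdx2 lie below 0 and that of Hnf4g above 0 on water, and those of Gata6 and Elf3 cross 0 in every comparison.

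Sox2 (ENSMUSG00000074637, chromosome 3 of mm9 from 34548927 to 34551383, plus strand) was not detectable at this depth in any group, with limits of 0.111 to 0.321 CPM. The foregut, gastric and squamous genes with which SOX2 is associated were mostly absent too. Of 19 such genes, 7 had 0 counts in all libraries and 8 were tested, of which 0 were called by edgeR in any comparison. For KO against WT, 0 had an unadjusted p under 0.05 on water and 2 after DSS, beside 20.4% and 15.4% of all genes. The exception in level was Krt7, a simple-epithelium keratin, with a mean of 234 CPM over all libraries. It had 223 ± 14.1 CPM in WT and 306 ± 23.7 in KO after DSS (SD, n = 3 each, log2 fold change 0.46, edgeR adjusted p = 0.0911). Next by mean count were Sox21, a SOX factor of foregut and brain, at 5.92 CPM and Krt14, a basal keratin, at 1.04 CPM.

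Among 25 other transcription factors of the gut epithelium, 22 were tested and edgeR called 0 in any comparison. At an unadjusted p under 0.05 there were 1 for KO against WT on water, 3 after DSS, 5 for DSS in WT, 2 for DSS in KO and 1 for the difference of responses, beside the shares of all genes given above. Their median log2 fold change was -0.08 on water and 0.00 after DSS, beside -0.01 and 0.00 over all genes tested, and -0.07 and -0.14 for the 6 members. The 3 with the highest counts were Ehf, an ETS factor close to Elf3, Vdr, the vitamin D receptor, and Hoxb13, a homeobox factor of the distal colon. Their log2 fold changes on water were 0.34 (SE 0.19) for Ehf, -0.36 (SE 0.18) for Vdr and -0.36 (SE 0.30) for Hoxb13. Per kilobase of exon, Hoxb13 with a mean of 123 CPM over all libraries was the only 1 of these 3 above the mean of 95.7 for Cdx2. The paralogs Cdx4 and Gata4 did not pass the filter, with at most 3 and 12 raw counts in a library.

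Genes that CDX2 and the HNF4 factors are known to activate were mostly not called. Of 12 CDX2 target genes 11 were tested. After DSS 1 of 11 was called, beside 0.747% of all genes. It was Krt20, a keratin of surface epithelium, at 715 ± 94.1 CPM in WT and 395 ± 52.4 in KO (SD, n = 3 each, log2 fold change -0.85, SE 0.14, edgeR adjusted p = 0.0317). This call was lost without WT replicate 1 or 3 (edgeR adjusted p = 0.0690 and 0.0897), without KO replicate 2 or 3 (0.0885 and 0.132) and with all 14 libraries in 1 model (0.342), while its log2 fold change stayed between -0.95 and -0.75 in all 15 settings run. Over the 11, the median log2 fold change of KO against WT was -0.02 on water, with 4 above 0 and 7 below, and -0.16 after DSS, with 2 above and 9 below. The members of highest count were Muc2, the main mucin of goblet cells, the microvillus protein villin (Vil1) and guanylin (Guca2a). On water their values were -0.15 (SE 0.35), -0.02 (SE 0.16) and -0.76 (SE 0.28), and edgeR called 0 of 11 there, with 6 at an unadjusted p under 0.05 and in both directions, beside 20.4% of all genes.

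Of 16 HNF4 target genes 12 were tested and edgeR called 0 in any comparison, with 3 at an unadjusted p under 0.05 on water and 3 after DSS, beside 20.4% and 15.4% of all genes. The median log2 fold change of KO against WT was -0.30 on water, with 9 of 12 below 0, and -0.18 after DSS, with 10 of 12 below 0. The highest were brush border genes. Cdhr5, a protocadherin between microvilli, had 802 ± 71.4 CPM in WT and 513 ± 82.8 in KO on water (SD, n = 4 each, log2 fold change -0.65, SE 0.18, edgeR adjusted p = 0.157) and 619.6 ± 47.9 and 481 ± 21.7 after DSS (SD, n = 3 each, log2 fold change -0.36, SE 0.10, edgeR adjusted p = 0.154). The motor protein gene Myo1a had -0.33 (SE 0.21) on water and -0.07 (SE 0.12) after DSS, and Cdhr2, the partner of Cdhr5, -0.24 (SE 0.16) and -0.12 (SE 0.10). Summed over the list, CPM was 2154 to 2550 in WT and 1609 to 1985 in KO on water, and 2008 to 2284 and 1729 to 1874 after DSS. Neither pair of ranges overlapped, and these 3 genes had the highest counts of the list. Of single genes tested, 10.4% on water and 21.7% after DSS had no overlap, and no such share was computed for sums.

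**Figure D5:**
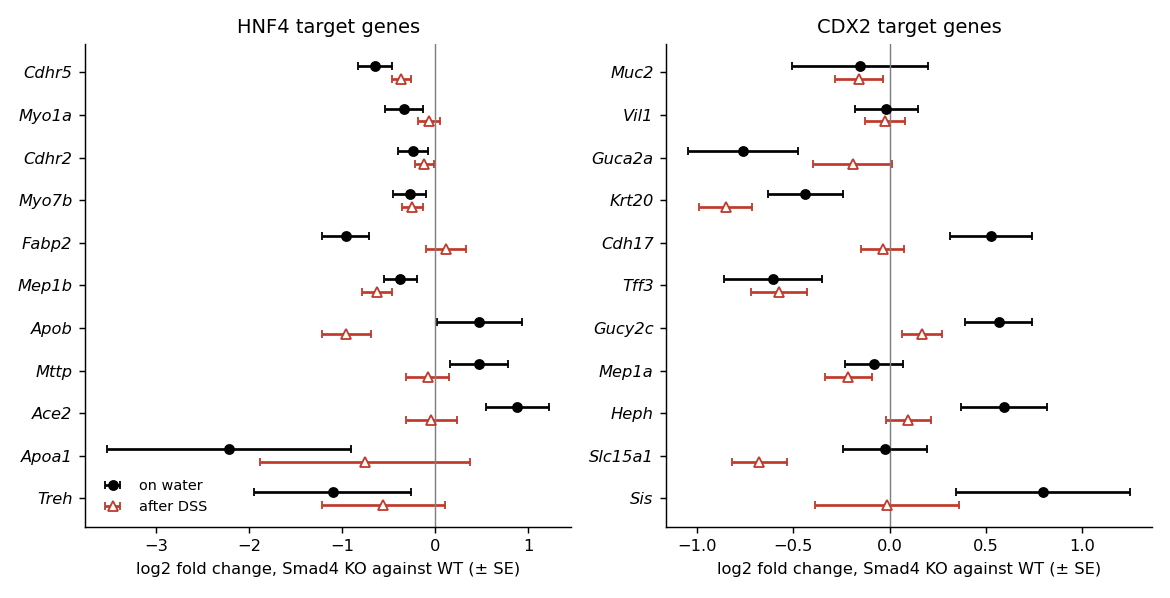
Fitted log2 fold change of Smad4 KO against WT (± SE) for 11 HNF4 target genes (left) and 11 CDX2 target genes (right) that were tested, ordered by mean level with the highest at the top, black circles on water and red triangles after DSS. Of the HNF4 targets drawn, 8 of 11 lie below 0 on water and 10 of 11 after DSS, and the CDX2 targets lie on both sides on water.

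In bulk RNA, fewer cells of a type and less RNA per cell cannot be told apart. Summed markers of some cell types separated by genotype beside the members, and those of others overlapped. Of the 7 epithelial markers 0 were called by edgeR after DSS, with 2 at an unadjusted p under 0.05, beside 15.4% of all genes. All 7 had fitted values below 0, as had the 6 members, beside a median log2 fold change of 0.00 over all genes tested. Among these values Vil1 (-0.02), Gata6 (-0.00) and Hnf4g (-0.05) were near 0. Leaving out 1 library turned the sign of Gata6 in 3 of 6 runs and that of Hnf4g in 1. The summed CPM of the 7 markers was 17147 to 17680 in WT and 15736 to 16743 in KO. These ranges did not overlap, while on water the sums did, at 11918 to 19264 CPM in WT and 12013 to 16421.5 in KO. Summed CPM of 8 colonocyte markers was 4557 to 5475 in WT and 2988 to 4028 in KO on water, and 3754 to 4774 and 2950.4 to 3555 after DSS. There edgeR called 4 of 8 lower in KO, and the calls after DSS given below likewise stand beside 0.747% of all genes. For 7 goblet markers the sums after DSS were 14186 to 15699 CPM in WT and 11655 to 12171 in KO, with Muc2 alone at means of 8614 and 7688. Of these 7 markers 2 were called lower after DSS, and fitted values were above 0 for 2 and below 0 for 5. On water the goblet sums overlapped, at 10357 to 21982 CPM in WT and 12749 to 15667 in KO. Of 7 markers of crypt base stem cells, 1 was called higher in KO after DSS, Smoc2, with means of 27.1 CPM in WT and 78.4 in KO. Fitted values were above 0 for 5 of the 7 and below 0 for 2. Their sums after DSS, with Smoc2 included, were 85.4 to 131 CPM in WT and 162 to 171 in KO. On water these sums overlapped, at 142 to 204 CPM in WT and 188 to 214 in KO. For 8 fibroblast markers the sums were 14.2 to 18.1 CPM in WT and 23.5 to 50.7 in KO on water, and after DSS, where 5 were tested and 3 called higher, they were 14.9 to 17.5 CPM in WT and 28.5 to 36.1 in KO. These lists share Krt20, Guca2a, Muc2, Tff3 and Vil1 with the CDX2 targets. Sums of proliferation, enteroendocrine, smooth muscle, enteric glia and immune markers overlapped between the genotypes on water and after DSS. Endothelial sums overlapped on water and were lower in KO after DSS, at 1.28 to 1.61 CPM in WT and 0.58 to 1.08 in KO. How often such sums separate for other sets of genes was not computed. The part of these markers in the values of the members was not tested.

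Over the 14 libraries, the members were also ranked by likeness with 11565 genes of at least 50 mean counts, as Pearson's r of log2 CPM. The libraries share groups, mitochondrial share and depth, so these values are descriptions. Cdx1 and Cdx2 had r = 0.80 with each other. Of all these genes, those most like Cdx1 were Dhps (0.93), Rrp7a (0.90) and Rassf7 (0.90), and most like Cdx2 were Spire2 (0.92), Phb2 (0.91) and U2af1 (0.91). For Hnf4a they were Emd (0.88), Gnb1 (0.87) and Inppl1 (0.86), and for Hnf4g Vps13c (0.97), Zdhhc21 (0.97) and Tmod3 (0.96). Hnf4a and Hnf4g had r = 0.34, and Hnf4g ran against Cdx1 (r = -0.65) and Cdx2 (-0.59). Cdx1 and Cdx2 ranked 9729 and 9266 of the 11565 genes in likeness to Hnf4g, so many genes ran against it more strongly. Gata6 was most like Kctd7 (0.89), RP23-329P9.11 (0.86) and Vegfc (0.85), and Elf3 most like Nrbp1 (0.91), Metrnl (0.90) and Fcgrt (0.89). No member was among the 3 genes most like another.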

How the data were processed

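Per the labels and the study's methods, alignment was to mm9 (Hisat2) and featureCounts summed the reads of each gene, and the authors deposited these raw read counts without normalization. The annotation release and the strand setting are not given in the sources used here. Of 37680 genes, 14001 had no count. Reads that a near-identical copy or an antisense gene shares can move a gene's count.

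Libraries were grouped by their labels, which do not say that replicates are separate animals, so p-values measure the spread between libraries. A gene entered the tests when 3 or more libraries held 10 or more of its counts (15127 genes). The quasi-likelihood test of edgeR 4.0.16 (R 4.3.3) was run after TMM scaling, only the 2 groups compared in each fit and all 14 libraries for the interaction, with Benjamini-Hochberg adjustment and a threshold of 0.05. The scripts were tested on simulated data. Ratios were tested two-sided with exact permutation tests (scipy 1.17.1, Python 3.11.15, pseudocount 0.5). Alternatives included DESeq2 1.42.0, blocks, covariates and each library left out, and leaving out the 3 libraries of high mitochondrial share was added later. Exon lengths and positions are from GENCODE M1, promoters from RefSeq (GRCm38.p6), which had Cdx2, Hnf4a, Elf3 and Sox2 among the windows used. Beside the members and Smad4, each list names its called genes and its 3 genes of highest mean count, and each member its 3 most alike genes. Cdx4 and Gata4 were named after their values were seen. The members and lists were chosen with earlier results of these data known. Totals of 12882827 to 26087231 counts set the precision, and intervals and limits for zero counts cover counting error only where said. 1 tested gene of the HNF4 target list counts in that list's totals and is not reported here by name or in the plot.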

Additional observations from a re-analysis of the deposited data

Results flagged for a closer look

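In groups of 4 libraries, a library was picked out when its gap to the nearest other, divided by the range of the group, passed Dixon's 95% value. Of 16 groups of values examined 3 were picked out, where chance picks about 1 in 20. Hnf4g had 19.0 CPM in WT water replicate 4, against 33.2 to 35.4 in the other 3 WT libraries on water. Elf3 had 743 CPM in KO water replicate 4, against 453 to 457 in the other 3 KO libraries on water. The log2 ratio of Cdx1 to Cdx2 counts was 0.61 in WT water replicate 1, against 0.94 to 1.01 in the other 3. The first 2 of these libraries had 32.8% and 21.4% of their counts on mitochondrial genes, and the third had 8.23%. The part of this share in the values was not tested for single libraries.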

How the results depend on the processing

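In all settings run, Cdx1 and Cdx2 kept a value below 0 and Hnf4g one above 0 for KO against WT on water, with log2 ranges of -0.54 to -0.37, -0.66 to -0.33 and 0.35 to 0.64, and Cdx1 (-0.40 to -0.14), Cdx2 (-0.46 to -0.21), Hnf4a (-0.25 to -0.15) and Elf3 (-0.14 to -0.01) stayed below 0 after DSS. Hnf4g for DSS in WT stayed above 0 (0.26 to 0.56, adjusted p 0.126 to 0.672). The edgeR or DESeq2 adjusted p was 0.0529 to 0.401 for Cdx1, 0.0474 to 0.421 for Cdx2 and 0.0729 to 0.522 for Hnf4g on water. Leaving out 1 library gave 0 to 1 members called on water, the 1 being Cdx2 without KO water replicate 4. Counts over all genes moved far more, and the cause was not tested. On water edgeR called 1 gene with the 2 groups alone, 1276 with all 14 libraries in 1 model, 1151 without the library labelled KO water replicate 1 in that model, 55 without the filter, 296 with the name prefix as a block, 1740 without KO water replicate 4 and 13 without KO water replicate 1, and DESeq2 called 768. After DSS edgeR called 113, with all 14 libraries 2, with 13 libraries 8, without the filter 345, within prefix D 42, with the mitochondrial share 60 and without 1 library 27 to 96, and DESeq2 called 499. DSS in WT gave 0 and without the filter 457, and without WT water replicate 2 it gave 418. DESeq2 called 71 for DSS in KO and 8 for the difference of responses, against 1 and 1 with edgeR. Without the 3 libraries of high mitochondrial share edgeR called 104 genes on water and 30 for the difference, and without KO water replicate 1 as well 943 and 776. DESeq2 without KO water replicate 1 called 625 on water, 64 for DSS in KO and 26 for the difference. For DSS in KO edgeR gave 1 to 19 genes over its settings, the highest without the filter.

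The replicate block gave 0 members called in all 5 comparisons, with 473, 57, 54, 15 and 1 genes over all for KO against WT on water, after DSS, DSS in WT, DSS in KO and the difference. Same-numbered libraries had correlations of -0.12 to 0.09, except replicate 4 on water, at 0.45. Its WT and KO libraries share the name prefix MP and a high mitochondrial share (32.8% and 21.4%). Apart from that pair, the numbers do not pair the libraries. Under this block, Elf3 on water was -0.023, and for DSS in KO Cdx2 was 0.095 and Gata6 -0.024, each with its sign turned.

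Other values turned sign too, all of them uncalled. With the mitochondrial share as a covariate, Gata6 was -0.018 on water, Elf3 -0.078 for DSS in WT, Cdx2 0.14 and Gata6 -0.076 for DSS in KO, and Gata6 0.0070 for the difference. Without the 3 libraries of high mitochondrial share (chosen after seeing the data), Elf3 was -0.34 on water, -0.064 for DSS in WT and 0.28 for the difference, and for DSS in KO Cdx2 was 0.098 and Gata6 -0.031. Without KO water replicate 1 as well, Elf3 was -0.34, -0.064 and 0.27 and Cdx2 0.15. With the prefix as a block, Cdx1 for DSS in WT was 0.090, as within prefix D (0.091), and Cdx2 for the difference -0.014. The prefix block over all 14 libraries (chosen after seeing the data) gave -0.0081 for Hnf4a, -0.041 for Gata6 and -0.39 for Elf3 for DSS in KO. Elf3 there was -0.061 with 13 libraries and -0.062 with DESeq2 on them.

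Leaving out 1 library at a time, the log2 values that turned sign ranged from -0.21 to 0.086 for Elf3 on water, -0.12 to 0.0093 for Hnf4g and -0.12 to 0.073 for Gata6 after DSS, and -0.24 to 0.022 for Cdx1 and -0.0016 to 0.16 for Elf3 for DSS in WT. For DSS in KO they ranged from -0.0085 to 0.17 for Cdx1, -0.13 to 0.12 for Cdx2, -0.21 to 0.012 for Hnf4g, -0.043 to 0.18 for Gata6 and -0.065 to 0.22 for Elf3. For the difference they ranged from -0.16 to 0.037 for Hnf4a and -0.15 to 0.13 for Elf3, and for the Cdx1 to Cdx2 ratio from -0.071 to 0.11 on water, -0.040 to 0.19 after DSS and -0.064 to 0.17 for DSS in WT. The Hnf4g to Hnf4a ratio on water stayed at 0.59 to 0.76, each with an exact permutation p of 0.0571, the smallest then possible. Krt20 after DSS also lost its call with 13 libraries (edgeR adjusted p = 0.247), with the replicate block (0.0755), with the prefix block (0.0904) and within prefix D (0.0897). With the longest transcript as length, Hnf4a was above Cdx2 in 14 libraries.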
